A study of Mus musculus with 2 samples.

Results

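The 9 B lineage genes Ebf1, Cd79a, Cd79b, Pax5, Ms4a1, Vpreb1, Igll1, Blnk and Blk were read on 2 one-colour Agilent mouse expression arrays, 1 hybridised with RNA of bone marrow-derived dendritic cells labelled EGR1-deficient and 1 with RNA of such cells labelled WT. Their probes were found through the transcript accession that the array files give for each probe. This gave 12 probes for the 9 genes, of 34565 named probes for 23786 genes in all. Both samples are labelled male and C57BL/6J; the age of the mice, their number and how Egr1 was inactivated are not given in the sources used here. In both groups femoral marrow cells were cultured in medium with 10% serum and 10 ng/ml GM-CSF, a cytokine under which marrow precursors become cells of dendritic and macrophage type, with collection on day 6. The labels' protocols name no stimulus other than GM-CSF. Per its title, the series asks how lactate dampens inflammatory activity of dendritic cells.

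B cells are made in the bone marrow, so a culture started from whole marrow begins with B cell precursors beside the myeloid precursors that GM-CSF expands. EBF1 and PAX5 are the transcription factors that specify the lineage and hold it. Pre-B cells first display a receptor with a surrogate light chain, built from the products of Vpreb1 and Igll1. The receptor signals through CD79A and CD79B, which pass the signal through kinases such as BLK to the adaptor BLNK, and Ms4a1 encodes CD20, a surface protein of later B cells.

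The labels were checked against Egr1, sex-linked genes and cell type markers. Egr1 itself, measured by 1 probe, had a signal of 1212 on the EGR1-deficient-labelled array and 379.7 on the WT array. That is against the label if the inactivation removes the RNA that the probe reads. No source used here gives the probe's position in the gene or how Egr1 was inactivated, so the reading could not settle the label. Every direction below rests on the labels as deposited. Xist, an RNA of female cells, read 4559 and 3425, and of the Y-linked genes Ddx3y, Kdm5d, Uty and Eif2s3y only Eif2s3y was well above background, at 27.1 and 25.6, and these values do not match a male label. All 12 markers on a mixed list of dendritic cells and macrophages were well above background on both arrays. That list does not tell a dendritic cell label from a macrophage one. The dendritic cell factor Zbtb46 read 122 and 119 and the MHC class II gene H2-Ab1 21791 and 20863. Of the macrophage markers, Cd68 read 8539 and 10293 and Mrc1 109 and 108. Among the 12 markers the widest differences belonged to the receptor genes Flt3 (0.50) and Csf1r (−0.39, another probe −0.05), the integrin gene Itgax (0.37, other probes 0.21 and 0.18) and Cd68 (−0.34, another probe −0.35).

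With 1 array per group there was no replicate and no test, so every difference describes these 2 arrays. Each value is the processed signal of 1 spot, in the scanner's linear intensity units after background subtraction, and the ± beside it is the scanner program's own error for that spot. Differences are log2 signals scaled to each array's 75th percentile, EGR1-deficient minus WT, and their ± combines the errors of both spots. A probe counts as measured on an array where the scanner program called it well above background. The lowest such signal was 13.3 on the EGR1-deficient-labelled array and 16.3 on the WT array.

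Among the 9 genes, 7 were well above background on both arrays and 2, Igll1 and Blk, on neither. Of the 7 genes, 5 were lower on the EGR1-deficient-labelled array, namely Ebf1, Cd79a, Cd79b, Vpreb1 and Blnk, and 2 were higher, Pax5 and Ms4a1. Ebf1 and Cd79b were lower by 2-fold or more, and no member was higher by that much. Among all 13724 genes well above background on both arrays, 1.01% were lower and 0.707% higher by 2-fold or more, and 57.4% were below 0. The median difference of the 7 genes was −0.71, against −0.05 for all genes. With a stricter filter on dim probes, which left 3 members, their median was 0.45. The members were chosen with earlier results of these data known, so the setting beside all genes is description only. In RNA of a whole culture, the number of B lineage cells, their RNA per cell and RNA of other cells cannot be told apart. Neither can scatter between single arrays.

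**Figure D1:**
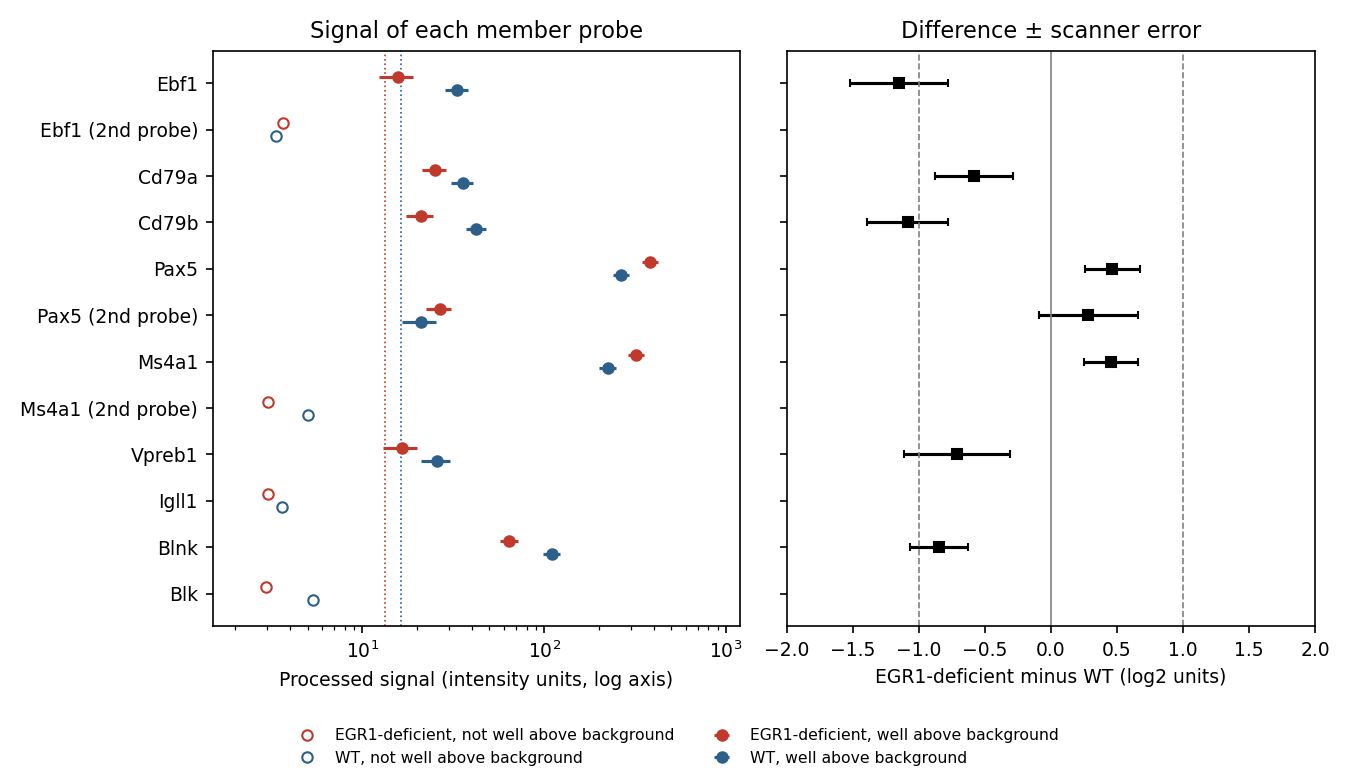
Processed signal of the 12 member probes on each array (left, log axis; bars are the scanner program's error, dotted lines the lowest signal called well above background on each array) and the difference, EGR1-deficient minus WT, in log2 units for the 8 probes well above background on both (right; dashed lines mark 2-fold). Ebf1, Cd79a, Cd79b, Vpreb1 and Blnk lie left of 0, and Pax5 and Ms4a1 right of it.

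Ebf1, on chromosome 11, encodes the early B cell factor. Its measured probe read 15.7 ± 3.32 on the EGR1-deficient-labelled array and 33.3 ± 4.85 on the WT array, a log2 difference of −1.15 ± 0.37. The error of that difference spans the 2-fold mark. Before the subtraction of background the same spot had a median brightness of 71 and 79, with a local background of 31 on both arrays, so brightness over local background was 40 and 48. The arrays were thus closer in brightness than in processed signal, from which the program takes a fitted background surface. A second Ebf1 probe, assigned to the same transcript, read 3.67 and 3.35, not well above background on either array. The Ebf1 difference therefore rests on 1 spot per array, close to the detection limit.

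Cd79b, on chromosome 11, encodes the beta signalling chain of the B cell receptor. It read 20.9 ± 3.52 on the EGR1-deficient-labelled array and 42.4 ± 5.38 on the WT array, a log2 difference of −1.09 ± 0.30. As for Ebf1, the error of that difference spans the 2-fold mark. The spot's median brightness was 76 and 105 over local backgrounds of 32 and 32.5, so here the 2 arrays were apart before subtraction too. Cd79a, on chromosome 7, encodes the partner alpha chain. Its probe read 25.1 ± 3.78 and 35.8 ± 4.93, a difference of −0.58 ± 0.29, lower in the same direction but short of 2-fold.

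Blnk, on chromosome 19, encodes the linker that couples the activated receptor to calcium signalling. It read 64.3 ± 7.05 on the EGR1-deficient-labelled array and 111 ± 11.6 on the WT array, a log2 difference of −0.85 ± 0.22. This was the brightest of the 5 lower readings, and its difference was 3.88 times its error, the highest ratio among the 7 genes. For Cd79b the ratio was 3.57 and for Ebf1 3.10 in size, and the other two lower genes, Cd79a and Vpreb1, stayed below 2. A call at 2 errors or more, chosen after the values were seen, thus took in Ebf1, Cd79b and Blnk as lower, where 7.75% of all genes and 9.39% of those with a mean signal at or below 66.0 were lower, and Pax5 and Ms4a1 as higher, where 5.24% were.

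Vpreb1 and Igll1 encode both parts of the surrogate light chain and are neighbours on chromosome 16. Vpreb1 read 16.4 ± 3.50 on the EGR1-deficient-labelled array, just over the lowest signal called there, and 25.7 ± 4.64 on the WT array, a log2 difference of −0.71 ± 0.40. The spot's median brightness was 70 and 78 over local backgrounds of 38 and 40, so brightness over local background was 32 and 38. As for Ebf1, the arrays were closer in brightness than in processed signal. Igll1 read 3.03 and 3.61, not well above background on either array, so its probe gave no comparison with its neighbour. Blk, a B cell kinase gene on chromosome 14, read 2.96 and 5.37 and was likewise not measured. Negative control spots had medians of 2.995 and 3.67, the level at which Igll1 lay.

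The RefSeq promoter windows of build GRCm38.p6, 250 bases before to 50 bases after each gene's start, were matched by symbol for 6 of the 9 members: Ebf1 (with 2 windows), Pax5, Cd79a, Igll1, Vpreb1 and Blnk. Cd79b, Ms4a1 and Blk were not matched. The windows were searched on both strands for the E2A E-box CAGGTG, the octamer ATTTGCAT, the EBF letters CCCNNGGG and TCCCNNGGG (each match of the longer holds the shorter), the PU.1 letters GAGGAAGT and the EGR letters GCGTGGGCG and GCGGGGGCG. The E-box occurred in 4 of the 7 windows, those of Cd79a, Vpreb1, Blnk and Igll1, and in 20.2% of all 32851 windows of the same length. These are shown because 3 of them belong to members that were lower on the EGR1-deficient-labelled array and the last to the unmeasured neighbour of Vpreb1. Of the other lower members, Ebf1 had no E-box in its 2 windows and Cd79b had no window. Capitals mark the letters found: the E-box in each, the octamer in Blnk and the short EBF letters in Igll1.
Cd79a, chr7:24897247-24897546, plus strand: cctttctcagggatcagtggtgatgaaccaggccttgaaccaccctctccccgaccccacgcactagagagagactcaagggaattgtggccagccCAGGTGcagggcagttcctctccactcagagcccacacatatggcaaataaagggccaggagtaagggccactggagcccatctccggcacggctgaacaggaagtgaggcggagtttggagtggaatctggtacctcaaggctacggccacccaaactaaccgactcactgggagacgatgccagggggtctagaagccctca
Vpreb1, chr16:16869206-16869505, minus strand: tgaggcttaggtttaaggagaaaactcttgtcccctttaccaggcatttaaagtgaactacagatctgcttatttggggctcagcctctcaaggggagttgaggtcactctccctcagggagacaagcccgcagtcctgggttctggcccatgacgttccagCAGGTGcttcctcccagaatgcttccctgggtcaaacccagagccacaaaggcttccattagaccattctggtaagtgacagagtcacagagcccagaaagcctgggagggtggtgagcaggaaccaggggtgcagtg
Blnk, chr19:40994172-40994471, minus strand: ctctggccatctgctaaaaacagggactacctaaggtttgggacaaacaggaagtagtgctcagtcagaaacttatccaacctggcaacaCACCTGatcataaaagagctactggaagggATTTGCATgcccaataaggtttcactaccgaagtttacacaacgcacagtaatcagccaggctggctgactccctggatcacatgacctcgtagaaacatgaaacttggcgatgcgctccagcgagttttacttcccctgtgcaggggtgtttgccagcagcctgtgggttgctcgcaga
Igll1, chr16:16863936-16864235, minus strand: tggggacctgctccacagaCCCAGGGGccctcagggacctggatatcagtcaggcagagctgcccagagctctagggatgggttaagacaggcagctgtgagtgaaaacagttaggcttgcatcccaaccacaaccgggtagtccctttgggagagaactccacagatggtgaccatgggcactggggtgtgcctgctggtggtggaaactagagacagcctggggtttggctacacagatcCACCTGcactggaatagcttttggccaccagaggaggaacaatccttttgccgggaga

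In the Cd79a window the E-box began 154 bases before the gene's start, in the Vpreb1 window 88 bases, in that of Blnk 160 bases and in that of Igll1 8 bases before it. The octamer of Blnk began 130 bases before the start, and 1.74% of all windows held one. The short EBF letters stood 231 bases before the start of Igll1, and 13.7% of all windows held them. The windows of Pax5 and Ebf1 held none of these letters, and no member window held the longer EBF letters, the PU.1 letters GAGGAAGT or either of the EGR letters, found in 6.56%, 3.20%, 0.612% and 2.91% of all windows in the order named above. Shorter forms of the PU.1 letters were not searched. A match describes letters, not a bound site, and an absent match says only that these letters are not in the window.

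Pax5 and Ms4a1 went the other way. Pax5, on chromosome 4, encodes the factor that commits cells to the B lineage. Its brighter probe read 382 ± 38.3 on the EGR1-deficient-labelled array and 264 ± 26.6 on the WT array, a log2 difference of 0.47 ± 0.21. Its second probe, for the same transcript, read 26.6 ± 4.13 and 20.9 ± 4.35, a difference of 0.28 ± 0.37, which is smaller than its error. Both Pax5 probes were higher on the same array, and neither came near 2-fold.

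Ms4a1, on chromosome 19, had 1 measured probe, at 321 ± 32.3 on the EGR1-deficient-labelled array and 224 ± 22.7 on the WT array, a log2 difference of 0.45 ± 0.21. The second Ms4a1 probe, assigned to the same transcript, read 3.04 and 5.03, below the detection call on both. The probes thus disagree on whether Ms4a1 RNA was present at all, and what sets them apart was not tested. The 3 genes with a second probe were Ebf1, Pax5 and Ms4a1; in Pax5 alone was it measured.

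The lower members were also the dim ones. Ebf1, Cd79a, Cd79b and Vpreb1 had mean signals from 20.6 to 30.0 over the 2 arrays, and Blnk 84.4, whereas Ms4a1 and Pax5 had 268 and 318. Differences scatter more at low signal: among the 3431 genes with a mean signal at or below 66.0, 2.51% were lower by 2-fold or more, but only 47.5% were below 0. In that set of dim genes Ebf1 had the 64th lowest difference, Cd79b the 72nd, Vpreb1 the 190th and Cd79a the 311th. Blnk, which is brighter, stood 205th from the lowest among all 13724 genes. Of the repeated probes with a signal from 15 to 100, only 5 were available, and their repeated spots gave a median SD of 0.23 for a difference.

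**Figure D2:**
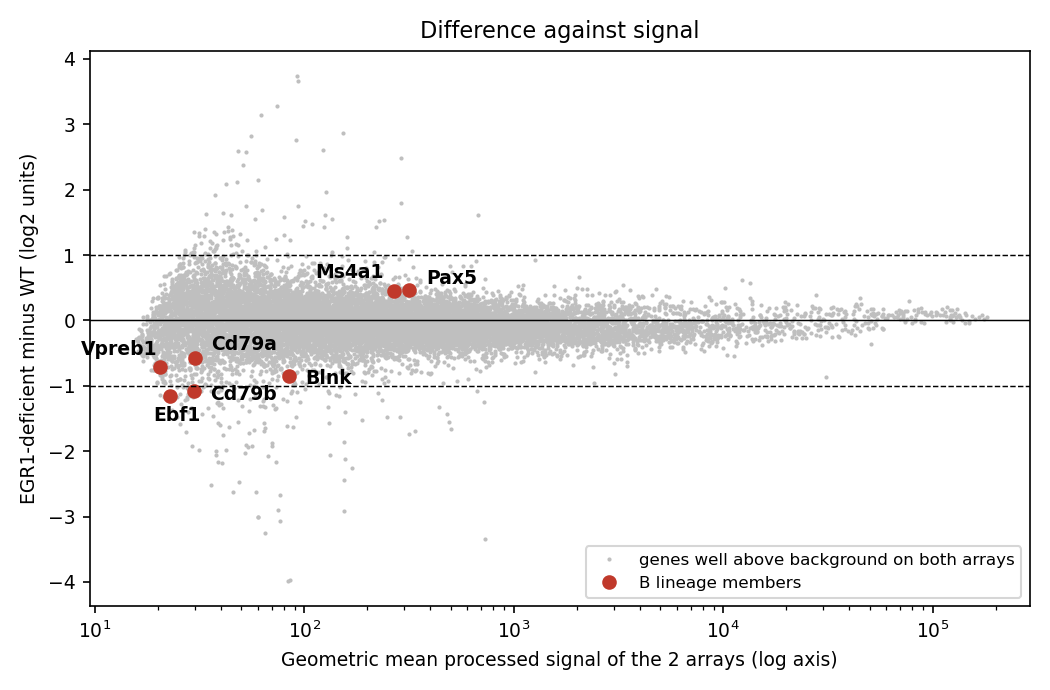
Difference, EGR1-deficient minus WT, in log2 units against the geometric mean processed signal of the 2 arrays (log axis) for 13724 genes well above background on both (grey) and the 7 members among them (red). Dashed lines mark 2-fold. Vpreb1, Ebf1, Cd79b and Cd79a lie at the dim end, where grey points reach past 2-fold both ways.

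The other genes of the lineage were read from lists. Across 5 further lists with 52 genes, 34 were well above background on both arrays, of which 19 were below 0, 15 above, and 0 lower or higher by 2-fold or more; with 1.01% lower and 0.707% higher among all genes, that count is near the background. A further 6 genes were well above background on the EGR1-deficient-labelled array only, 0 on the WT array only, and 12 on neither. Among all 23786 named genes, 5.45% were well above background on the first array only and 1.62% on the WT array only, and the first array called more spots in all.

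Transcription factors that act before or beside EBF1 and PAX5 had a median difference of 0.10 over 10 measured genes, 4 below 0 and 6 above. Bcl11a, needed for early B cell development, read 78.7 and 46.3 (0.70), Ikzf3 (the Aiolos gene) 71.8 and 47.1 (0.54, with other probes at −0.08 and −0.14), the E protein inhibitor Id3 96.5 and 115 (−0.32) and Foxo1 117 and 136 (−0.29, another probe −0.17). Tcf3, the E2A gene, read 145 and 119 (0.22, another probe −0.01), and the B cell repressor Bach2 was well above background on the EGR1-deficient-labelled array only, at least 1.20-fold higher. Such an at-least fold sets the measured signal against the lowest signal called well above background on the other array. Where the gene's own reading there was higher, that reading was used. The scanner errors are left out, so it is not a firm lower bound: the log2 difference of Bach2 was 0.54 ± 0.52.

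Recombination and pre-B receptor genes were largely unmeasured. Rag1 and Rag2, the recombinase genes, and Vpreb2 and Vpreb3 were well above background on neither array. The ligase gene Lig4 read 74.0 and 69.9 (0.02, another probe 0.55). Dntt, which encodes terminal transferase, read 135 and 113 (0.18), and Il7r, the receptor for the cytokine that sustains B precursors, 1125 and 990 (0.12). The ETS factor gene Erg was at least 2.20-fold higher on the EGR1-deficient-labelled array.

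Of the mature B surface genes, 3 of 6 measured were below 0 and 3 above, with a median of 0.15. Tnfrsf13c, the BAFF receptor gene, read 60.0 and 29.8 (0.94), with another probe at −0.28, and Fcmr, the IgM Fc receptor gene, 38.3 and 24.1 (0.60). The complement receptor gene Cr2 read 113 and 86.4 (0.32, another probe 0.06), and Cd72 244 and 248 (−0.09), with another probe at 0.71. Fcer2a, the low-affinity IgE receptor gene, was at least 1.48-fold higher on the EGR1-deficient-labelled array, while Cxcr5, Fcrla and Bank1 were measured on neither array.

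Receptor signalling genes, most of which myeloid cells also use, had a median of −0.06 over 11 measured genes, 8 of them below 0. The kinase genes Syk and Lyn read 198 and 239 (−0.34, another probe 0.08) and 2656 and 3201 (−0.34), and the phosphatase gene Inpp5d 141 and 107 (0.34). Plasma cell genes had a median of −0.23 with all 4 measured genes below 0, where 57.4% of all genes were below 0. Sdc1, the syndecan-1 gene, read 302 and 503 (−0.80, other probes −0.96 and −0.17) and Irf4 296 and 339 (−0.26, another probe 0.44). Xbp1 read 1259 and 1370 (−0.19, other probes −0.18 and −0.10) and Prdm1 255 and 263 (−0.12). Jchain, the joining chain of secreted antibody, Tnfrsf17 and Derl3 were measured on neither array, and Mzb1 was at least 1.45-fold higher on the EGR1-deficient-labelled array.

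**Figure D3:**
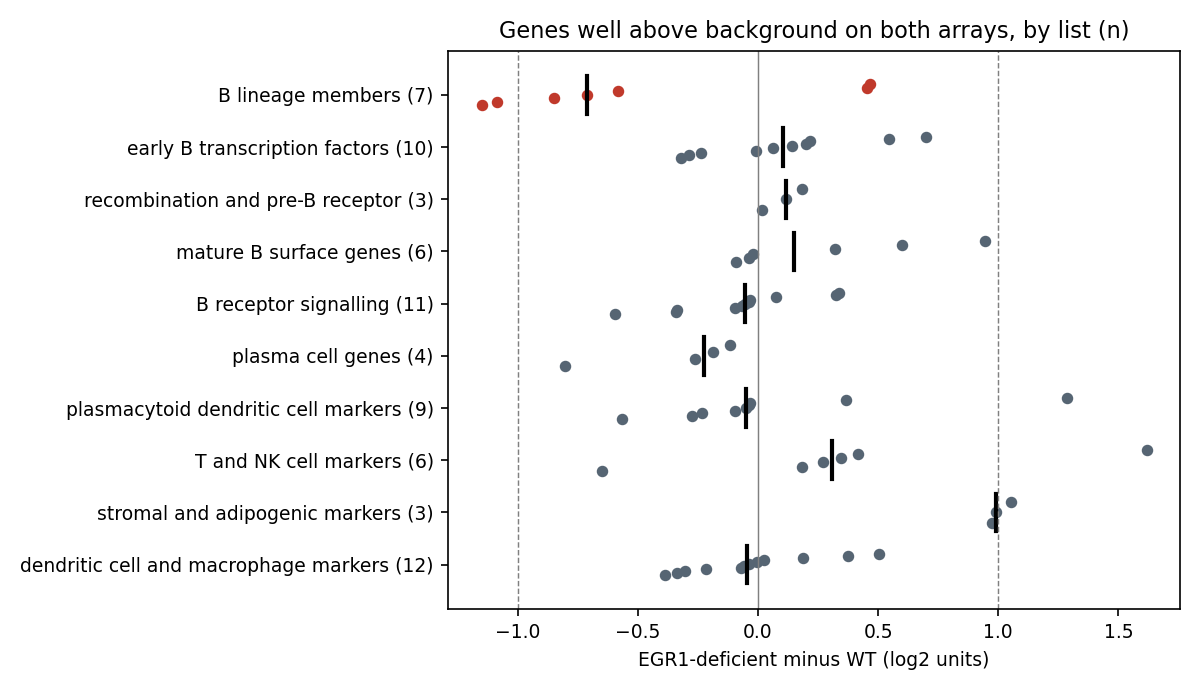
Difference, EGR1-deficient minus WT, in log2 units for each gene well above background on both arrays, by list; the number of such genes is in brackets, black bars are medians and dashed lines mark 2-fold. The members have a median of −0.71, the 5 other B lineage lists medians from −0.23 to 0.15.

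Markers of other cells that share genes with the B lineage were read beside the members. Plasmacytoid dendritic cells use several B lineage genes, and all 9 of their markers were measured, 7 below 0, with a summed signal of 10741 on the EGR1-deficient-labelled array and 9964 on the WT array. Without Siglech the sums of the other 8 were 5994 and 6449. These sums are of unscaled signals. Their defining receptor gene Siglech read 4748 and 3516 (0.37), Lag3 53.3 and 20.8 (1.29), the peptidase gene Klk1 941 and 1330 (−0.56) and the factor Tcf4 849 and 983 (−0.28, other probes −0.43 and −0.24). Ebf1 is also expressed by marrow stromal and fat-forming cells. Of 12 markers of those cells, the 3 measured on both arrays were above 0 and 4 were measured on the EGR1-deficient-labelled array only. Over all 12, measured or not, the summed unscaled signals were 304 and 160. Col1a2 read 74.4 and 34.2 (1.05), Pdgfrb 59.4 and 28.6 (0.99) and Cxcl12, the chemokine gene of marrow niches, 42.6 and 20.7 (0.98), and Lepr was at least 1.94-fold higher and Dcn at least 1.83-fold. The Ebf1 relatives Ebf2 and Ebf3, with Lum, Pdgfra and Adipoq, were measured on neither array.

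T and NK cell markers, the other lymphoid set, had 5 of 6 measured genes above 0. Over all 10 genes of the list, measured or not, the summed unscaled signals were 1008 and 649. Klrd1, the CD94 receptor gene, read 226 and 70.3 (1.62), Klrb1c 17.9 and 26.7 (−0.65), Lck 207 and 148 (0.41) and Cd247 254 and 191 (0.34, another probe 0.10), while Cd3g was at least 2.29-fold higher on the EGR1-deficient-labelled array and Cd3d at least 1.73-fold lower. The part of these other cells in the members' differences was not tested.

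The size of the members' differences depended on how background was handled. All 5 lower members stayed below 0, and Pax5 and Ms4a1 above it, under each processing that could read them. The normexp background model was run with an offset of 50, which pulls dim differences towards 0 by construction. It also used local backgrounds in place of the fitted surface, and how much each change moved the members was not tested. With normexp Ebf1 differed by −0.15, Vpreb1 by −0.13, Cd79a by −0.31, Blnk by −0.39 and Cd79b by −0.42, and no member reached 2-fold. In the authors' deposited series table, which does not list Ebf1 or Vpreb1, Cd79b differed by −0.97. Blnk was the only lower member bright enough to pass a stricter filter on dim probes.

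**Figure D4:**
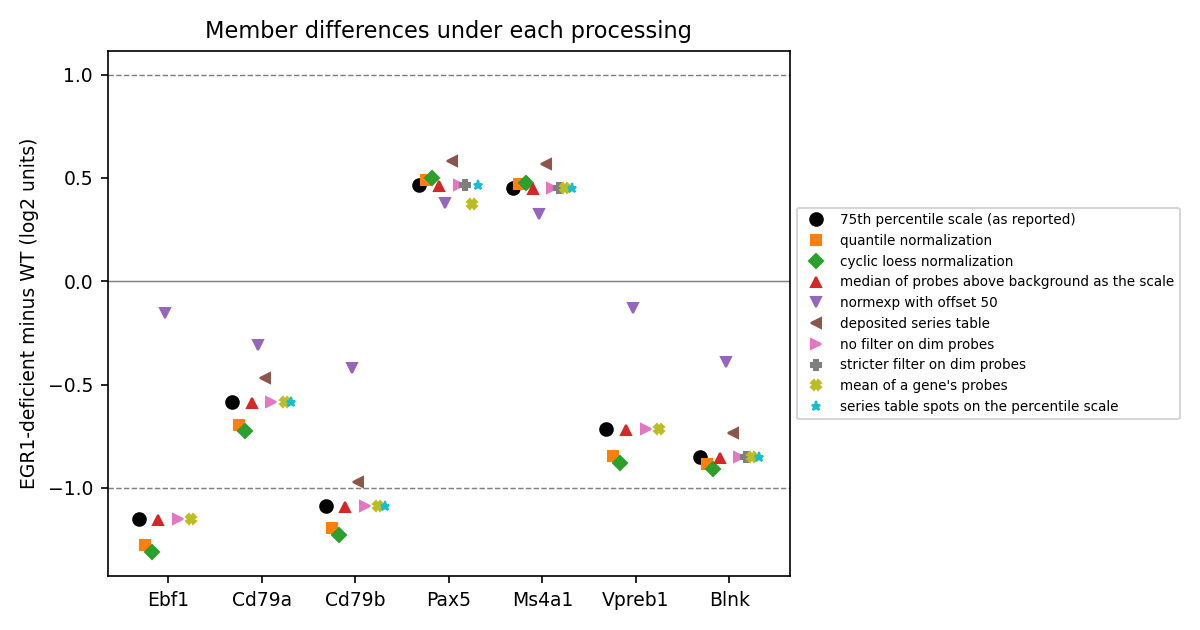
Difference, EGR1-deficient minus WT, in log2 units for the 7 members well above background on both arrays, under each processing that could read them; dashed lines mark 2-fold. Signs do not change; the normexp values of Ebf1 (−0.15) and Vpreb1 (−0.13) lie nearest 0.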

How the data were processed

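RNA of 2 cultures, 1 labelled EGR1-deficient and 1 WT, was read on 2 one-colour Agilent arrays of the same slide and scan, per the file headers. The deposited scanner values are spot intensities, made with Agilent Feature Extraction 12.1.0.3 per the file headers (11.5.1.1 per the submitters' processing notes), with a fitted background surface averaging 56.2 and 54.7 units. Of 59305 non-control spots, 59.8% and 55.2% were well above background by the deposited 0 or 1 calls (other values per the file headers), and 0 were saturated. The authors' deposited series table holds intensities equal to the processed signal times 1 constant per array, 6.18 and 5.97, for 29296 spots, with column medians of 1205 and 1114; no source used here explains them.

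Log2 processed signals were scaled to each array's 75th percentile of the non-control spots (191.6 and 183.0). Spots of a probe were averaged and outlier spots (77 and 79) left out. Transcript accessions were matched to RefSeq symbols of GRCm38.p6 (34565 probes named, 22038 not); that build served for names, chromosomes and promoter windows only, since the array files name mm9. A gene was read by its probe of highest mean signal. Array number limits the precision: no p-value was computed. Members and lists were chosen with earlier results of these data known. Named are all members, Egr1 and sex-linked genes as label checks, and per list up to 4 genes with the largest difference and 2 with the largest at-least fold. Other list genes (Tcf3, H2-Ab1, Zbtb46, Mrc1 and genes measured on neither array) were chosen after their values were seen. Some list genes that this rule selects are counted but not reported here by name. Repeated spots of 281 probes had a median SD of 0.07 log2 units for a difference, and 2 probes of 1 gene 0.17 over 3571 genes. Alternatives used limma 3.58.1 in R 4.3.3; the files lack a mean spot signal, so normexp used median signals. The steps were tested on simulated data.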

Additional observations from a re-analysis of the deposited data

How the results depend on the processing

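The number of members lower by 2-fold or more was 2, and it stayed at 2 after quantile or loess normalization and with the median as the scale. The Ebf1 and Cd79b readings are the same by construction without a filter on dim probes and when a gene's measured probes are averaged. The number was 2 there as well. It was 0 with normexp, 0 in the authors' deposited series table and 0 with the stricter filter; the table and that filter do not hold Ebf1, and the stricter filter leaves 3 members. It was 1 with the table's spots on the 75th percentile scale, which was added after the values were seen, as was the call at 2 scanner errors, which gave 3 lower and 2 higher. The median difference of −0.71 was −0.88 after loess, −0.15 with normexp, −0.47 in the series table and 0.45 with the stricter filter, where Pax5, Ms4a1 and Blnk remained. Ebf1 ranged from −1.31 to −0.15 over the 7 settings that read it, and Cd79b from −1.23 to −0.42 over 9. The series table, which also lacks the 75th percentile scaling, shifted the median of all genes by 0.12. Under normexp 32 genes of all were 2-fold lower, against 138, and 18 higher, against 97. No paired analysis was possible because each group has 1 array. Leaving out an array was not possible either.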

Other observations

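Negative control spots give another view of the dim readings. Of 308 such spots, 3 on the EGR1-deficient-labelled array and 4 on the WT array were called well above background, with highest signals of 89.9 and 133.9, which exceed the readings of all 5 lower members, Ebf1, Cd79a, Cd79b, Vpreb1 and Blnk, on the same arrays. The 95th percentile of the control spots was 3.38 and 4.11, below each measured member. The Ebf1 and Vpreb1 readings were each reached or exceeded by 3 and 4 control spots.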
